A study of Mus musculus with 6 samples.

Results

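This report describes the RNA levels of 10 long noncoding RNAs in cultured murine oviductal epithelial cells. They were picked by name, as 3 RNAs that stay in the nucleus (Malat1, Neat1 and Kcnq1ot1) and 7 host transcripts of small nucleolar RNAs (Gas5, Snhg1, Snhg3, Snhg5, Snhg6, Snhg8 and Snhg12). They are 10 of the 22800 gene symbols in the deposited tables, and each had 1 entry in each of the 6 libraries. The 2 groups were MOEHIGH cells, taken at passages 90, 103 and 113, and MOELOW cells, taken at passages 8, 9 and 10, and the question was what differed after long culture. Both came from 1 line, made from oviducts of several 8-week-old females of the outbred CD1 strain pooled together, and MOEHIGH was derived from MOELOW by serial passaging alone. Total RNA, depleted of ribosomal RNA, was sequenced from 1 culture per passage, so that a p-value below measures the spread between passages of this line, and effects of long culture and of the outgrowth of a subset of the pooled cells cannot be told apart.

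Long noncoding RNAs are transcribed and often spliced like messenger RNAs but code for no known protein. Malat1 and Neat1 are neighbouring genes whose RNAs stay in the nucleus, where Malat1 gathers at the speckles that store splicing factors and Neat1 is the scaffold on which paraspeckles are built. Kcnq1ot1 is an imprinted RNA, made from the paternal chromosome, that silences neighbouring genes of its domain. A snoRNA host gene carries small nucleolar RNAs in its introns. These guide the chemical modification or cleavage of ribosomal RNA, and the spliced host RNA is exported, bound by ribosomes and, in several cases, rapidly destroyed by nonsense-mediated decay. Many host genes begin their transcript with a run of C and T letters, the terminal oligopyrimidine tract that they share with ribosomal protein genes.

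Expression was given as FPKM, the mapped fragments of a gene scaled by the length of its transcript and by the size of the library, which is a level per length. The number of fragments behind a value is not known from FPKM, so counting error could not be computed. The tables listed between 10208 and 10292 genes at 1 FPKM or more in MOEHIGH and between 10888 and 10987 in MOELOW. In none of the 6 tables did the heading over the values name that library's own passage, and each library was placed by its sample record. Among the cell type markers was Pax8, a transcription factor of the oviductal secretory cell. It averaged 45.0 ± 3.94 FPKM in MOEHIGH and 49.2 ± 5.04 FPKM in MOELOW (SD, n = 3 each). By the test described below, Pax8 was 1 of 4 secretory markers that did not pass, while 2 were higher and 4 lower in MOEHIGH. The epithelial adhesion genes Epcam and Cdh1 were under 0.1 FPKM or listed at 0 in all 6 libraries. The library of passage 113 stood apart within MOEHIGH, with the smallest summed FPKM of the 6 libraries (597161, against 770438 and 720193 at passages 90 and 103).

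The start of the host transcripts is shown first, because many host genes are known for a pyrimidine tract there. Each line gives 60 bases of the RefSeq promoter table (GRCm38.p6), 40 before the annotated start and 20 from the start on, written in the direction of transcription. Capitals mark a tract, defined as a C followed by at least 4 letters that are all C or T and lying with its C within 10 bases of the annotated start, and also the letters TATAAA between 40 and 15 bases before the start, both searched on the transcribed strand only.
Gas5, chr1:161035126-161035185, plus strand: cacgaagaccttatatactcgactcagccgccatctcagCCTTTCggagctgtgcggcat
Snhg1, chr19:8723447-8723506, plus strand: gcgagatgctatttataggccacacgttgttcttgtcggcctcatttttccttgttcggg
Snhg3, chr4:132353667-132353726, minus strand: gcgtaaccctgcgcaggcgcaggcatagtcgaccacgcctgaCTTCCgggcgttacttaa
Snhg5, chr9:88522878-88522937, minus strand: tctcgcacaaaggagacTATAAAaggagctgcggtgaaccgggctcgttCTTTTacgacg
Snhg8, chr3:123508317-123508376, minus strand: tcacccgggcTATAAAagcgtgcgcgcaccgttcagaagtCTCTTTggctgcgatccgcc
Snhg12, chr4:132308638-132308697, plus strand: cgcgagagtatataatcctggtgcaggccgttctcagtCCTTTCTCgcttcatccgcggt

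The tract began within 10 bases of the annotated start in 5 of the 6 hosts with an entry. It began exactly at that start only in Snhg8, and in Snhg5 it began 9 bases downstream. A tract defined in the same way stood in 34.4% of the 27025 genes of the table, and in 37.0% of the 8345 among them that were tested below. Snhg1 was the host without it in this window. Gas5 has 2 starts in the table, and the tract was at the downstream one, which is the one shown. Snhg5 and Snhg8 also held TATAAA, as did 2.54% of the genes of the table and 1.43% of those tested. This search was added after the sequences had been seen. For comparison, the same 60 bases of the nuclear RNAs Malat1 and Kcnq1ot1 held neither. Neat1 and Snhg6 are described by their levels only. A match of letters is a description and was not tied to a measurement here.
Malat1, chr19:5802653-5802712, minus strand: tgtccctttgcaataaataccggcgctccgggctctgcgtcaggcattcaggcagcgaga
Kcnq1ot1, chr7:143296528-143296587, minus strand: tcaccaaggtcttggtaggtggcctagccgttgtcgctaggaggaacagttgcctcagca

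All 7 snoRNA hosts and Neat1 were higher in MOEHIGH, and Malat1 did not pass the test. Each gene that averaged 0.5 FPKM or more, 11621 in all, was tested by limma on the log2(FPKM + 1) scale, with Benjamini-Hochberg adjustment over all of them and a threshold of 0.05. Of the 10 RNAs, 9 reached that level and 8 of these were called higher, 0 lower and 1 neither, where 24.3% of all genes tested were called higher, 32.1% lower and 56.4% in either direction. Kcnq1ot1 was under the minimum. Each of the 8 kept its call in all 17 alternative fits, the one without passage 113 among them. The median log2 fold change of the 9 was 1.04, beside -0.05 for all genes tested. In 9 of the 10 the 3 MOEHIGH values all lay above the 3 MOELOW values, which was so for 28.5% of the genes tested. An exact permutation test of 3 libraries against 3 cannot give a two-sided p below 0.10, so the model across all genes carries each test below.

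**Figure D1:**
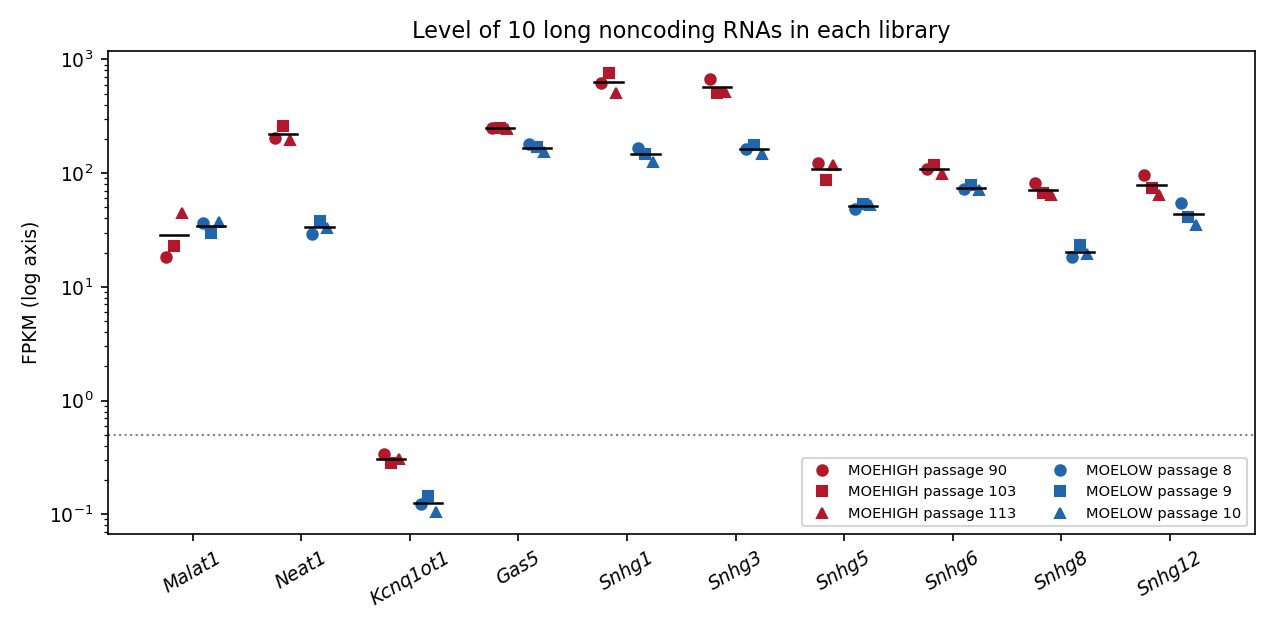
FPKM of each RNA in each library on a log axis, with MOEHIGH in red left of MOELOW in blue, 1 symbol per passage, black bars at the group means and a dotted line at the minimum of 0.5 FPKM for the test. Both groups stand apart for every RNA except Malat1, whose values run between 18.1 and 44.2 FPKM in MOEHIGH and between 29.7 and 37.1 FPKM in MOELOW.

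Neat1 had the largest difference of the set. The gene lies on the minus strand of chromosome 19 (mm10, chr19:5824708-5845478), and its level was 205, 262 and 196 FPKM in MOEHIGH at passages 90, 103 and 113, against 29.2, 37.7 and 32.9 FPKM in MOELOW at passages 8, 9 and 10. Every MOEHIGH value was at least 5.20 times every MOELOW value. The means were 220.8 ± 35.6 and 33.3 ± 4.27 FPKM (SD, n = 3 each), a ratio of 6.64, and the log2 fold change was 2.69 (standard error, SE, 0.15, limma adjusted p = 3.8e-06). Ordered from the largest rise to the largest fall, Neat1 stood at place 96 of the 11621 genes tested. The deposited value covers the whole gene, so the short and the long form of Neat1, of which the long one is needed for paraspeckles, cannot be told apart here.

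Malat1, the next gene on the same strand (chr19:5795690-5802672), was called neither higher nor lower. It was at 18.1, 22.9 and 44.2 FPKM in MOEHIGH, against 36.3, 29.7 and 37.1 FPKM in MOELOW. The library of passage 113 was the highest of the 6, and those of passages 90 and 103 were the lowest, so that the groups overlapped. The log2 fold change was -0.36 (SE 0.29, limma adjusted p = 0.32). With passage 113 left out it was -0.72 (SE 0.14, limma adjusted p = 0.0041), and Malat1 then passed the test as lower. The SD of log2(FPKM + 1) within MOEHIGH was 0.64 for Malat1, at percentile 98.5 of all genes tested, against a median of 0.18 over those genes.

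The ratio of these neighbours separated the groups. The level of Neat1 divided by that of Malat1 was 11.3, 11.4 and 4.44 in MOEHIGH, against 0.804, 1.27 and 0.886 in MOELOW. Neat1 was thus the more abundant RNA per length in every MOEHIGH library, and their levels were close to each other in MOELOW. Because passage 113 held the highest Malat1 of all, its ratio was the smallest in MOEHIGH, yet still above the MOELOW range.

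Kcnq1ot1, an antisense RNA spanning chr7:143203458-143296549 within Kcnq1, was found at a low level. It was at 0.340, 0.280 and 0.304 FPKM in MOEHIGH, against 0.124, 0.144 and 0.105 FPKM in MOELOW. The groups did not overlap, and the ratio of the means was 2.48. With no minimum on the level Kcnq1ot1 was called higher, with a log2 fold change of 0.22 on the log2(FPKM + 1) scale (SE 0.03, limma adjusted p = 0.0016), in a fit that called 17.6% of 16525 genes higher. A pseudocount of 1 compresses a value this low, and with a pseudocount of 0.01, chosen after the values were seen, the log2 fold change was 1.25 (SE 0.33, limma adjusted p = 0.017).

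The host transcripts were abundant and rose to different extents. Their summed level was 1952, 1868 and 1616 FPKM in MOEHIGH, against 704, 692 and 603 FPKM in MOELOW. As a share of each library's summed FPKM this was between 0.253% and 0.271% in MOEHIGH and between 0.0965% and 0.103% in MOELOW, so the difference was also seen relative to the library's own total. The rise over all 7 ran between a ratio of means of 1.48 (Snhg6) and of 4.30 (Snhg1).

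Snhg1, on chromosome 19 (chr19:8723475-8726443), carries Snord22 and a series of other box C/D snoRNAs in its introns. It was at 616, 764 and 509.9 FPKM in MOEHIGH, against 167, 148 and 125 FPKM in MOELOW. The lowest MOEHIGH library was thus 3.05 times the highest MOELOW library. On the log2 scale the change was 2.09 (SE 0.18, limma adjusted p = 3.9e-05).

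Snhg3, on chromosome 4 (chr4:132348014-132353686), is the host of Snora73a and Snora73b, which act in the cleavage of the ribosomal RNA precursor. Its level was 675, 507 and 519 FPKM in MOEHIGH, against 163, 178 and 147 FPKM in MOELOW. The highest value was that of passage 90, and no MOELOW value came near the MOEHIGH range. Snhg3 was higher by 1.79 on the log2 scale (SE 0.14, limma adjusted p = 3.0e-05). On the same strand Snhg3 overlaps the start of Rcc1, the gene of the exchange factor for the nuclear GTPase Ran, and fragments of shared exons could have been assigned to either. Rcc1 was at 74.3, 55.3 and 55.1 FPKM in MOEHIGH, against 26.1, 26.8 and 23.9 FPKM in MOELOW, and was also called higher (log2 fold change 1.22, SE 0.14, limma adjusted p = 0.00017). Snhg3 divided by Rcc1 was 9.08, 9.17 and 9.41 in MOEHIGH, against 6.23, 6.64 and 6.16 in MOELOW, a difference that also separated the groups.

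Snhg8, on chromosome 3 (chr3:123507552-123508404), is the shortest of the host genes and holds Snora24. It was at 81.1, 66.3 and 63.7 FPKM in MOEHIGH, against 18.3, 23.3 and 19.3 FPKM in MOELOW. It was the least abundant host in both groups, although in MOEHIGH its range overlapped that of Snhg12. The ratio of its means, 3.47, was close to that of Snhg3 (3.49), and on the log2 scale it was higher by 1.74 (SE 0.14, limma adjusted p = 2.4e-05).

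Snhg5, on chromosome 9 (chr9:88521050-88522929), is the host of Snord50a and Snord50b, which guide methylation of ribosomal RNA. It was at 123, 86.5 and 117 FPKM in MOEHIGH, against 48.8, 53.7 and 52.9 FPKM in MOELOW. Passage 103 was the lowest in MOEHIGH, and still 1.61 times the highest MOELOW value. Snhg5 was higher by 1.04 on the log2 scale (SE 0.14, limma adjusted p = 0.00055).

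Snhg12, a second host on chromosome 4 (chr4:132308623-132311024), carries 4 snoRNAs. It was at 96.6, 74.7 and 63.8 FPKM in MOEHIGH, against 54.5, 41.5 and 35.3 FPKM in MOELOW. Its groups came nearest to each other, with the lowest MOEHIGH value 1.17 times the highest MOELOW value. The log2 fold change was 0.83 (SE 0.20, limma adjusted p = 0.0082).

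Gas5, the growth arrest specific transcript on chromosome 1 (chr1:161034422-161038539), hosts more snoRNAs than any other member, with 9 annotated inside it. It was at 251, 249.9 and 245 FPKM in MOEHIGH, against 181, 169.8 and 153 FPKM in MOELOW. The MOEHIGH libraries hardly differed, with an SD of 3.40 FPKM around a mean of 248 FPKM. Gas5 was higher by 0.57 on the log2 scale (SE 0.10, limma adjusted p = 0.0022). Gas5 overlaps the start of Zbtb37 on the opposite strand, which was between 0.396 and 0.698 FPKM in MOEHIGH and between 0.568 and 0.651 FPKM in MOELOW and did not pass the test.

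Snhg6, also on chromosome 1 (chr1:9941959-9944118), is the host of Snord87. It was at 109, 119 and 97.8 FPKM in MOEHIGH, against 71.9, 78.0 and 70.4 FPKM in MOELOW. The ratio of its means, 1.48, was the smallest among the hosts and equal to that of Gas5 at this precision. The log2 fold change was 0.55 (SE 0.11, limma adjusted p = 0.0031).

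Because FPKM are per length, the order of the RNAs can be read within each group. In MOEHIGH, Snhg1 and Snhg3 led with overlapping ranges, followed by Gas5 and Neat1, by Snhg5 and Snhg6, and by Snhg12 and Snhg8, each a pair with overlapping ranges, and then by Malat1 and Kcnq1ot1, each apart from its neighbours in the order. In MOELOW, Gas5, Snhg3 and Snhg1 led with overlapping ranges, followed by Snhg6 alone. Snhg5, Snhg12, Malat1 and Neat1 came next in MOELOW, each overlapping the one after it, before Snhg8 and Kcnq1ot1. Snhg1 divided by Gas5 was 2.46, 3.06 and 2.09 in MOEHIGH, against 0.925, 0.870 and 0.813 in MOELOW, so that these hosts changed places between the groups in every library.

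**Figure D2:**
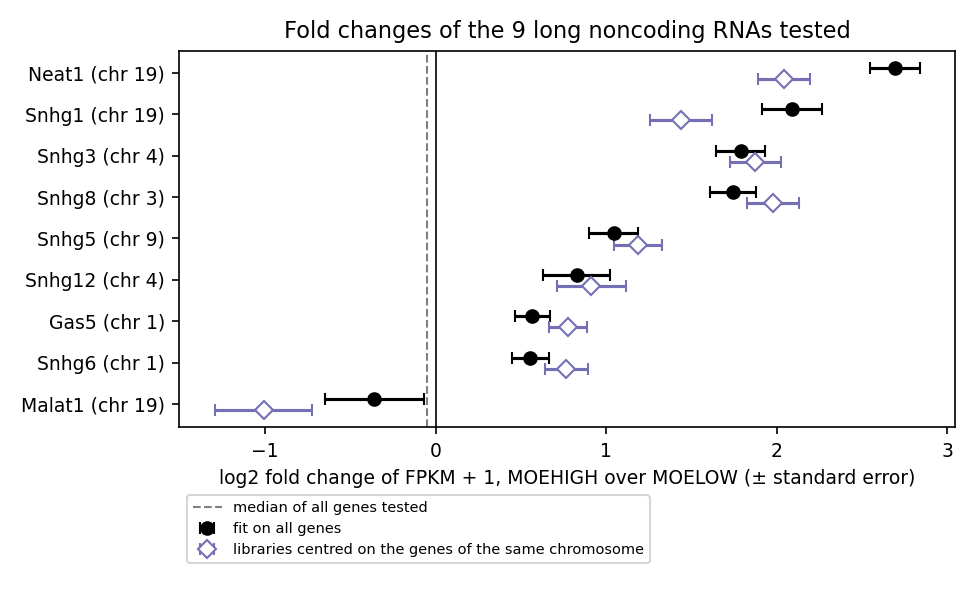
Log2 fold change of FPKM + 1, MOEHIGH over MOELOW, with its standard error for the 9 RNAs tested (black) and after each library was centred on the genes of the same chromosome (open diamonds), with a dashed line at the median of all genes tested. The 3 RNAs of chromosome 19 lie further left after centring (Neat1 at 2.04, Snhg1 at 1.44 and Malat1 at -1.01), and the other 6 lie further right.

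Chromosome 19, on which Neat1, Malat1 and Snhg1 lie, differed from the rest of the genome as a whole. Of its 413 genes tested, 273 (66.1%) were called higher, with a median log2 fold change of 0.70, the highest of any chromosome. Chromosomes 8 and 2 followed with 44.9% and 39.8% called higher, and the chromosomes of the other members (1, 3, 4, 7 and 9) had between 17.6% and 21.4%. When each library was centred on the median of the tested genes of the same chromosome, Neat1 (log2 fold change 2.04, limma adjusted p = 2.1e-05) and Snhg1 (1.44, limma adjusted p = 0.00037) were still called higher. Malat1 was then called lower (-1.01, SE 0.29, limma adjusted p = 0.018). The copy number of the chromosome was not measured in these data.

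The genes around each RNA gave the same picture on a smaller scale. Within 500 kb of Neat1, 36 of 50 genes tested were higher and 2 lower, and within 500 kb of Snhg1, 23 of 27 were higher and 2 lower. Of the 47 genes around Malat1, 33 were higher and 2 lower, while Malat1 itself was neither. The members, Neat1 included, were left out of all these counts. The hosts elsewhere stood among genes that mostly did not rise. Around Gas5, 0 of 7 genes were higher and 1 was lower, around Snhg5, 0 of 6 were higher and 3 were lower, and around Snhg6, 1 of 7 was higher and 1 lower. Snhg3 and Snhg12 share most of their surroundings, where 7 of 22 and 6 of 20 genes were higher, and around Snhg8 2 of only 3 genes were higher.

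Some of the nearest genes passed the test and some did not. Frmd8, 4224 bases from Neat1, was between 15.1 and 17.6 FPKM in MOEHIGH and between 17.3 and 20.1 FPKM in MOELOW and did not pass the test (log2 fold change -0.18, limma adjusted p = 0.21). Slc3a2, which encodes an amino acid transporter chain and starts 106 bases from Snhg1 on the opposite strand, averaged 133 ± 8.49 FPKM in MOEHIGH and 71.1 ± 10.9 FPKM in MOELOW and was called higher at 0.90 (limma adjusted p = 0.00062). Centred on its chromosome, Slc3a2 was at 0.26 and no longer passed. On the other side of Snhg1, Wdr74, a ribosome biogenesis gene, was called higher at 1.54 (limma adjusted p = 0.00031) and was at 0.89 when centred, and Ndst3, the neighbour of Snhg8, at 1.45 (limma adjusted p = 6.4e-05). Mettl14 on the other side of Snhg8 was called higher at 0.39 and Zfp949 beside Snhg5 lower at -0.46 (limma adjusted p = 0.014 and 0.0055). Rc3h1 beside Gas5, Cops5 beside Snhg6, Syncrip beside Snhg5, Taf12 beside Snhg12 and Phactr4 beside Snhg3 did not pass the test.

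**Figure D3:**
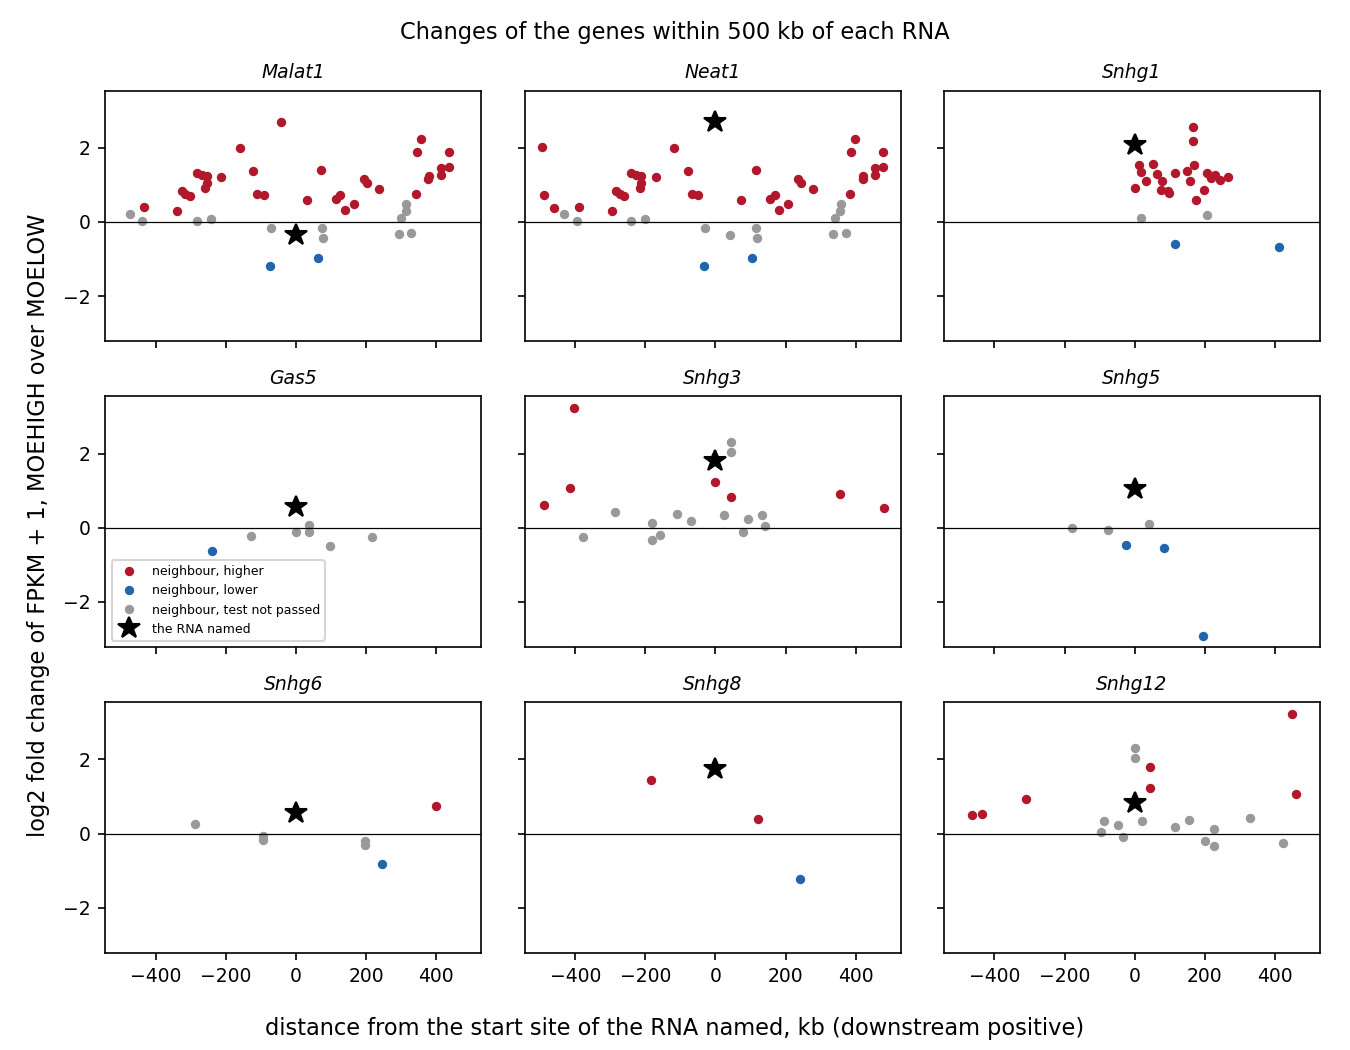
Log2 fold change of FPKM + 1, MOEHIGH over MOELOW, of each tested gene against its distance in kb from the start of the RNA named above the panel (star), with red for higher, blue for lower and grey for neither. Around Neat1, Malat1 and Snhg1 most points are red, and Malat1 lies below most of its neighbours, while around Gas5 and Snhg5 none is red.

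The snoRNAs themselves could hardly be read from these tables. The annotation (GENCODE M21) places 9 snoRNAs inside Gas5, 8 in Snhg1, 4 in Snhg12, 2 each in Snhg3 and Snhg5 and 1 each in Snhg6 and Snhg8, and only 5 of these had an entry. Snord47 in Gas5 and Snora61 and Snord99 in Snhg12 were listed at 0 in all 6 libraries. Snora16a was listed at 0, 91.2 and 50.2 FPKM in MOEHIGH, against 67.1, 0 and 0 FPKM in MOELOW, and Snora44 at 137, 0 and 65.5 FPKM in MOEHIGH, against 0, 73.3 and 0 FPKM in MOELOW. Such jumps between 0 and over 50 FPKM fall within both groups, and neither passed the test. A value of 0 in these tables may not mean that an RNA was absent. Gspt1, a translation termination gene, was listed at 0 at passage 103 and between 76.8 and 99.3 FPKM in the other MOEHIGH libraries. The cause of that 0 was not tested.

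Other host genes behaved unequally. Of 33 further snoRNA hosts tested, 11 were higher, 2 lower and 20 neither, with a median log2 fold change of 0.35. This count and those of the lists below stand beside 24.3% higher and 32.1% lower among all genes tested. All 5 noncoding ones changed, 3 of them upwards. Snhg4 averaged 33.7 ± 1.78 FPKM in MOEHIGH and 9.26 ± 1.17 FPKM in MOELOW (SD, n = 3 each, log2 fold change 1.76, limma adjusted p = 1.1e-05), and Snhg10 was also higher, at 18.0, 16.5 and 10.0 FPKM in MOEHIGH, against 2.15, 1.93 and 4.66 FPKM in MOELOW (2.05, limma adjusted p = 0.00065). Snhg7 passed the test narrowly (2.14, limma adjusted p = 0.046), but its groups overlapped, since passage 9 stood at 82.9 FPKM beside 9.25 and 7.60 FPKM in the other MOELOW libraries. Its call was lost in 9 of 17 alternative fits.

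The imprinted hosts Meg3 and Rian, which lie in 1 cluster, were the noncoding hosts that fell. Meg3 was at most 0.0576 FPKM in MOEHIGH and between 30.3 and 47.3 FPKM in MOELOW (log2 fold change -5.19, limma adjusted p = 3.1e-07), and Rian at most 0.0552 FPKM in MOEHIGH and between 22.6 and 46.4 FPKM in MOELOW (-4.95, limma adjusted p = 1.8e-06).

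Of the 28 protein-coding hosts tested, 8 were higher, 0 lower and 20 neither, a share of higher genes near the 24.3% of all genes tested. Nucleolin (Ncl) and Nop56, both proteins of ribosome production, were each higher by 1.43 on the log2 scale (limma adjusted p = 3.0e-05 and 0.00078), and Taf1d, a subunit of the RNA polymerase I initiation factor, by 0.88 (limma adjusted p = 0.00040). Among the 19 hosts that encode ribosomal proteins, which also carry the pyrimidine tract, 2 were higher and 17 were neither, with a median log2 fold change of 0.33. The count of further hosts called higher depended on single libraries. It was 24 without passage 113, where all 19 ribosomal protein hosts were at their MOEHIGH minimum, and 6 without passage 8 or passage 10, and 7 without passage 103. Over all genes tested, 3335 were called higher without passage 113, 2203 without passage 8, 2244 without passage 10 and 2397 without passage 103. The count with all 6 libraries was 2826.

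The proteins that bind and build the box C/D and box H/ACA particles around snoRNAs were mostly higher. Of 20 tested, 15 were higher, 1 lower and 4 neither, with a median log2 fold change of 0.71, and between 12 and 18 were called higher over the alternative fits. All core proteins of both particles were among those called higher. Of the box C/D core, the methyltransferase fibrillarin (Fbl) was higher by 1.04, Nop56 by 1.43, Nop58 by 0.66 and Nhp2l1 by 0.38 (limma adjusted p between 0.00078 and 0.037, the call of Nhp2l1 being lost in 5 of 17 alternative fits), and of the box H/ACA core, the pseudouridine synthase dyskerin (Dkc1) by 0.85, Gar1 by 0.91, Nop10 by 0.99 and Nhp2 by 0.86 (limma adjusted p between 0.00035 and 0.0082). Nolc1, a chaperone of snoRNPs in the nucleolus, was at 161, 139 and 129 FPKM in MOEHIGH, against 40.6, 41.7 and 38.3 FPKM in MOELOW, a rise of 1.80 (limma adjusted p = 7.3e-06). Nolc1 lies on chromosome 19 and was at 1.15 when centred on it, beside 1.23 for Nop56 in the same fit. The exception was Znhit6, an assembly factor of box C/D particles, which was at 36.6, 27.4 and 27.0 FPKM in MOEHIGH, against 126, 109 and 84.0 FPKM in MOELOW (-1.77, limma adjusted p = 0.00010).

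The proteins that join Neat1 in paraspeckles did not share its size of change. Of 26 tested, 10 were higher, 3 lower and 13 neither, with a median log2 fold change of 0.29. Of the 3 proteins of the same family at the paraspeckle core, Sfpq was higher at 268 ± 21.7 FPKM in MOEHIGH and 184 ± 11.8 FPKM in MOELOW (SD, n = 3 each, 0.54, limma adjusted p = 0.0039). Nono averaged 222 ± 11.6 FPKM in MOEHIGH and 209 ± 5.15 FPKM in MOELOW and did not pass the test. Pspc1 was lower, at 12.1, 9.11 and 7.56 FPKM in MOEHIGH, against 17.5, 19.4 and 17.2 FPKM in MOELOW (-0.87, limma adjusted p = 0.0025). The RNA processing factors Cpsf7 (1.10, limma adjusted p = 0.00016) and Taf15 (1.05, limma adjusted p = 7.1e-05) rose the most, and Cpsf7 lies on chromosome 19 and was at 0.46 when centred on it. The cold-inducible RNA binding protein gene Cirbp fell by 0.86 (limma adjusted p = 0.0011).

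Among the proteins of nuclear speckles, where Malat1 gathers, 10 of 28 were higher, 1 lower and 17 neither, with a median log2 fold change of 0.25. Pnn (0.82, limma adjusted p = 0.00078) and the SR protein kinase Srpk1 (0.71, limma adjusted p = 0.00071) rose the most, and the related kinase Srpk2 was the one that fell (-0.71, limma adjusted p = 0.0035). Of the nonsense-mediated decay factors, 9 of 20 were higher, 1 lower and 10 neither, with a median of 0.31. The helicase Upf1, the central factor of this decay, averaged 49.8 ± 1.45 FPKM in MOEHIGH and 27.8 ± 2.54 FPKM in MOELOW (0.82, limma adjusted p = 0.00030), and Magohb of the exon junction complex was higher by 0.82 as well (limma adjusted p = 0.00086). The count of higher decay factors was 4 without passage 8 and 5 without passage 9, and the single lower one, Smg6, was lost in 9 of 17 alternative fits.

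**Figure D4:**
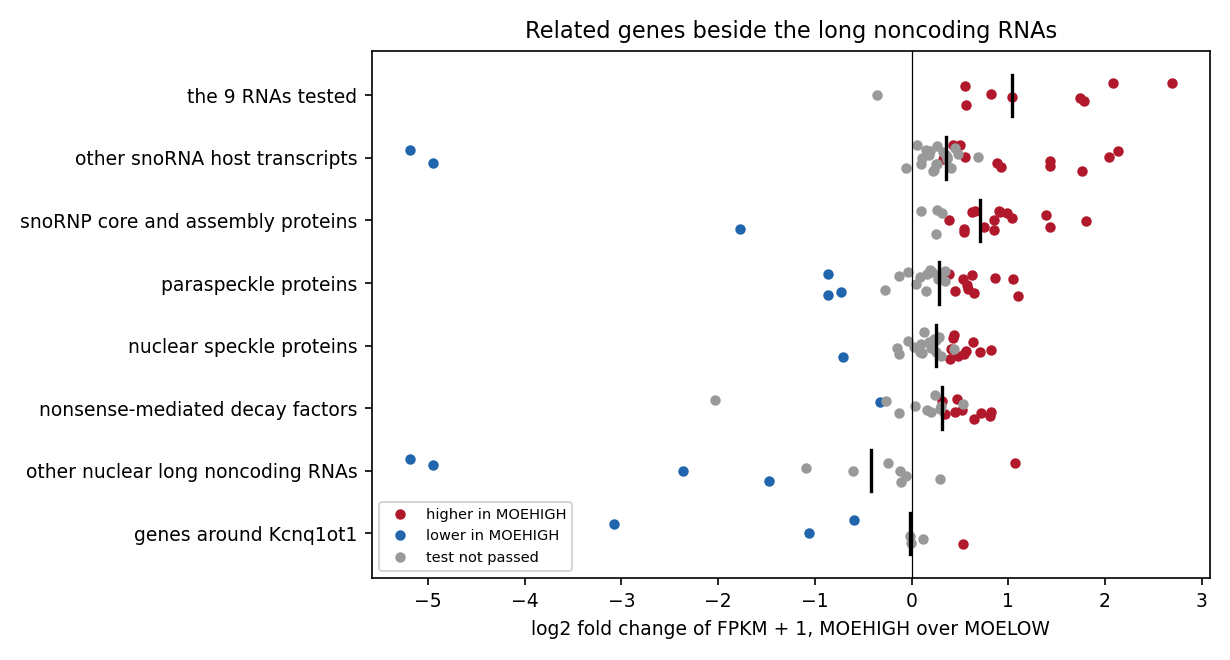
Log2 fold change of FPKM + 1, MOEHIGH over MOELOW, for the 9 long noncoding RNAs tested and for the tested genes of 7 related lists, 1 point per gene, red for higher, blue for lower and grey for neither, with a black bar at each median. The medians of the RNAs (1.04) and of the snoRNP proteins (0.71) lie furthest to the right, and that of the other nuclear long noncoding RNAs (-0.42) to the left.

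Other nuclear long noncoding RNAs did not share the direction of Neat1. Of 12 tested, 1 was higher, 4 lower and 7 neither, with a median of -0.42. The share called lower was near the 32.1% of all genes tested. The imprinted RNA Airn was at 1.01, 0 and 0.489 FPKM in MOEHIGH, against 7.45, 5.29 and 6.60 FPKM in MOELOW (log2 fold change -2.36, limma adjusted p = 0.00012), and Peg13 was also lower (-1.47, limma adjusted p = 3.5e-05), beside Meg3 and Rian, which count in this list too. Terc, the RNA template of telomerase, was the one called higher, at 2.27, 1.57 and 3.61 FPKM in MOEHIGH, against 0.852, 0.644 and 0.362 FPKM in MOELOW (1.07, limma adjusted p = 0.0040). Without passage 113, 7 of these RNAs were lower, in a fit that called 4314 of all genes tested lower, against 3734 with all 6 libraries.

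The list of genes around Kcnq1ot1 holds those of its imprinted domain and a few of the adjoining imprinted cluster, which Kcnq1ot1 is not known to regulate. Of 18 listed, 7 were tested, of which 1 was higher, 3 lower and 3 neither, while 11 were under the minimum, Kcnq1 itself being listed at 0 in 5 of the 6 libraries. Cd81, a tetraspanin gene, was at 166, 170 and 216 FPKM in MOEHIGH, against 403, 364 and 381 FPKM in MOELOW (-1.06, limma adjusted p = 0.00028). Tnfrsf23, a decoy receptor gene, was at 2.05, 1.31 and 1.23 FPKM in MOEHIGH, against 23.0, 22.1 and 15.9 FPKM in MOELOW (-3.07, limma adjusted p = 6.0e-06), and Osbpl5 was lower by less (-0.60, limma adjusted p = 0.012). Cars was called higher at 0.53 (limma adjusted p = 0.017), a call that was lost without passage 103, 9 or 10. The nearest tested genes on either side of Kcnq1ot1, Tssc4 and Nap1l4, did not pass the test (limma adjusted p = 0.99 and 0.88).

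The genes whose levels followed those of Malat1 most closely over the 6 libraries were Rock1 (Pearson r = 0.996), Pank3 (0.995) and Slc30a5 (0.994), out of the 8324 genes that averaged 5 FPKM or more. All 3 had their highest value at passage 113 and did not differ between the groups by the test. Those closest to Gas5 were Zfp7 (0.997), Psd (0.997) and Eps8l2 (0.996), all called higher. These 6 libraries are passages of 1 line, and for Gas5 the likeness rests on the difference between the groups.

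Markers of other cell types moved with the groups as well. All 8 tested smooth muscle markers were lower, with a summed level between 70.9 and 109 FPKM in MOEHIGH and between 8366 and 12172 FPKM in MOELOW, and Acta2 and Tagln made up most of the MOELOW sum. Of the fibroblast markers 6 of 7 were lower (23.5 to 34.2 FPKM summed in MOEHIGH, 595 to 987 FPKM in MOELOW). Col1a1 and Col1a2 made up most of the MOELOW sum. Both tested endothelial markers were lower (0.792 to 1.08 FPKM summed in MOEHIGH, 5.25 to 7.92 FPKM in MOELOW). Pecam1, Cdh5 and Vwf were under 0.1 FPKM or listed at 0 in all libraries. Of the mesothelial markers 3 of 6 were higher and 2 lower (921 to 1218 FPKM summed in MOEHIGH, 823 to 1169 FPKM in MOELOW). Krt19, which did not pass the test, made up most of these sums. The higher ones were Upk3b (means of 91.8 FPKM in MOEHIGH and 2.88 FPKM in MOELOW), Msln (166 and 19.95 FPKM) and Bnc1 (15.1 and 0.335 FPKM). Cdh2 (71.2 and 125 FPKM) and Wt1 were lower. Of the leukocyte markers 2 of 4 were higher and 1 lower (36.1 to 53.6 FPKM in MOEHIGH, 64.4 to 101 FPKM in MOELOW), with Ptprc at most 0.133 FPKM. Cd14, the lower one, made up most of these sums, while Mrc1 (11.7 and 0.0956 FPKM) and Csf1r (1.61 and 0.642 FPKM) were higher. Of the ciliated cell markers 2 of 6 were higher and 2 lower (505 to 820 FPKM in MOEHIGH, 317 to 380 FPKM in MOELOW). Tubb4b alone made up nearly all of these sums, and Rsph1 was listed at 0 in every MOEHIGH library. Of the secretory markers 2 of 10 were higher and 4 lower (2128 to 3296 FPKM in MOEHIGH, 1573 to 1950 FPKM in MOELOW). Krt18 and Krt19 made up most of these sums, and Krt18 averaged 2029 FPKM in MOEHIGH and 798 FPKM in MOELOW. The 4 lower ones were Wt1 (means of 29.9 and 50.6 FPKM), Emx2 (3.84 and 12.7 FPKM), Esr1 (0.0383 and 3.63 FPKM) and Pgr (0.00674 and 7.36 FPKM). The part of these cells in the levels of the noncoding RNAs was not tested, and in bulk RNA a change in the number of cells of a type and a change in RNA per cell cannot be told apart.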

How the data were processed

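RNA of 3 passages of MOEHIGH and 3 of MOELOW was sequenced by the authors from strand-specific libraries. Per the labels, reads were aligned to mm10 with TopHat2 2.0.8b, and the deposited FPKM values, 1 table of 23141 entries per library, were made by the authors with Cuffdiff 2.1.1. The strand setting of the counting is not given in the sources used here. For the 236 symbols that repeated, the most abundant entry was used.

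Testing was by limma 3.58.1 (R 4.3.3) with a variance trend on log2(FPKM + 1), for genes averaging 0.5 FPKM or more, without a block. This scale understates the change of low genes. In simulated data (200 changed of 11621 genes), 31.3% of 1.5-fold, 73.1% of 2-fold and 92.4% of 4-fold changes were recovered, and 1.50% of calls were false. These rates do not carry over to the real data, where 56.4% of genes were called. The simulation also gave both groups the same spread, while the median SD was 0.18 in MOEHIGH and 0.11 in MOELOW. Positions came from GENCODE M21 (GRCm38, which is mm10), and from RefSeq for 2123 symbols.

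The members and lists were chosen with earlier results of these data known. A rule named the members, the 2 largest called changes per direction of each list (mean of at least 5 FPKM), genes of short lists (20 or fewer), nearest tested neighbours, closest patterns and snoRNAs inside hosts. Core snoRNP and paraspeckle proteins, Snhg4, Ncl, Taf1d, Gspt1, Smg6, Terc, Airn, Peg13 and some markers were named after their values were seen. Some neighbouring genes are not reported here.

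Alternatives were 4 scalings, pseudocounts of 0.1 and 0.01, other minimums, summed entries, no variance trend, an adjusted p of 0.01, a block on replicate number, and fits leaving out 1 library. Python 3.11.15, numpy 2.4.6, pandas 2.3.3 and matplotlib 3.10.9 were used.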

Additional observations from a re-analysis of the deposited data

How the results depend on the processing

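Of the 10 RNAs, 8 were called higher in each of the alternatives except without a minimum on the level, where Kcnq1ot1 made it 9. The count called lower was 1, Malat1, when libraries were centred per chromosome, and ran between 0 and 1 over the fits that left out 1 library, the 1 again being Malat1, without passage 113. No log2 fold change of a member changed sign. That of Malat1 ran between -1.01 and -0.10, that of Neat1 between 2.04 and 2.78, that of Gas5 between 0.50 and 0.78 and that of Snhg12 between 0.67 and 0.99. Over all genes, 2350 were called lower with a mean of at least 5 FPKM, where fewer genes were tested, against 3734. Leaving out 1 library gave between 2203 and 3335 genes higher and between 3163 and 4314 lower, both highest without passage 113. The median log2 fold change of all genes, -0.05, was -0.11 with equal summed FPKM and -0.01 with the median of ratios.

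Replicate numbers are shared between the groups by label only. Deviations of same-numbered libraries correlated at -0.02, -0.15 and 0.12, and passage 90 correlated better with passage 9 (0.22) than with its own number, so the numbers were not read as pairs. With the replicate block, 2967 genes were higher and 3839 lower, and 8 members were higher and 0 lower, with Malat1 at an adjusted p of 0.16 from limma. Precision is limited by 3 libraries per group from 1 line and by FPKM, which keep no depth.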
